A study of Mus musculus with 24 samples.

Results

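STAT factors and their SOCS inhibitors were followed as a set of 9 genes of cytokine signalling in mouse dendritic cells: Stat2, Stat3, Stat4, Stat5a, Stat6, Socs1, Socs2, Socs3 and Cish. They were taken by name from the 38887 genes of the deposited count table, after the Ensembl identifiers were matched to mouse gene symbols, and all 9 were found. The study sequenced RNA from dendritic cells grown out of mouse bone marrow, antigen-presenting cells that sense microbes and instruct T cells. Its 24 samples form 6 groups of 4: cells labelled IRE1α wild type (WT) or knockout (KO), each left untreated or given zymosan or lipopolysaccharide (LPS). IRE1α, the product of Ern1, is a sensor of unfolded protein in the endoplasmic reticulum that splices the mRNA of the transcription factor XBP1. Zymosan, prepared from yeast cell walls, is sensed through Dectin-1 together with Toll-like receptor 2. LPS comes from the outer membrane of bacteria and is sensed through Toll-like receptor 4. The labels give no allele, Cre driver, strain, age, dose or time of treatment. The sample titles speak of treated mice, and the extraction protocol speaks of stimulated dendritic cells. They do not say whether the 4 replicates of a group came from different mice, cultures or libraries, so the p-values measure only the spread between these samples.

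In JAK-STAT signalling, a cytokine binds its receptor, receptor-bound JAK kinases phosphorylate STAT proteins, and the paired STATs enter the nucleus and switch on genes. SOCS proteins and CIS, the product of Cish, are made in response to that signal and shut it down by blocking JAKs, covering receptor docking sites or sending bound proteins to degradation. In dendritic cells this loop is known to follow Toll-like receptor activation, because the cells then secrete interferons, interleukins and colony-stimulating factors that act back on them.

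The promoters of Stat2, Socs1 and Socs3, the 3 members with the largest LPS response in WT cells, and of Stat4 are shown because they carry letters known as STAT binding motifs. The RefSeq table (GRCm38.p6) held 10 windows of 250 bases before a transcription start for 8 of the 9 genes, with no entry for Socs2. Both strands were searched for 3 motifs: the gamma-activated site TTCNNNGAA, the longer spacing TTCNNNNGAA that STAT6 is known to bind, and the interferon-stimulated response element written as GAAANNGAAA or its complement TTTCNNTTTC. The last is bound by the interferon-activated complex that contains STAT2, and by interferon regulatory factors. Capitals mark the matches, and each line reads 5′ to 3′ on the gene's strand towards the start. Stat2 is chr10:128270248-128270497 (+), Stat4 is its second listed start at chr1:52007990-52008239 (+), Socs1 is chr16:10785537-10785786 (-), and Socs3 is the part of its window outside annotated exons, chr11:117969452-117969616 (-).
Stat2: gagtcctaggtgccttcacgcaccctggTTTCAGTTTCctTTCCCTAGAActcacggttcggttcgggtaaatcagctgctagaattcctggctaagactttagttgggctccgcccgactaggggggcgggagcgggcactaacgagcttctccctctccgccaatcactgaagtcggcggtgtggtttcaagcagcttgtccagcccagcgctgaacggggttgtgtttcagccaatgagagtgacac
Socs1: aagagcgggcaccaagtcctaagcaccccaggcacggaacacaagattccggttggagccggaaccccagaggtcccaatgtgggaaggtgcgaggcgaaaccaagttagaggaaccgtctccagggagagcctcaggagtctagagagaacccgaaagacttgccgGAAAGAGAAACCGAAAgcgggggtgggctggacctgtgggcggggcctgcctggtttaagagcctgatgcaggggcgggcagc
Socs3: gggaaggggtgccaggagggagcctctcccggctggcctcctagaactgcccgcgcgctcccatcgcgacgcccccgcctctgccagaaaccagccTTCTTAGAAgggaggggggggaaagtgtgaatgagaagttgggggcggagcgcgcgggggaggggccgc
Stat4: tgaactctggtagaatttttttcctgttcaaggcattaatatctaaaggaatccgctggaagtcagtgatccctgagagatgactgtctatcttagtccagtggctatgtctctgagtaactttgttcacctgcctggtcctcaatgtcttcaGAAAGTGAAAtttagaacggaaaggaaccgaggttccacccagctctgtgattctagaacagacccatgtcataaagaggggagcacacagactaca

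The Stat2 promoter held an interferon-stimulated response element, TTTCAGTTTC, from 222 to 213 bases before the start, followed by TTCCCTAGAA from 210 to 201 bases before it. The Socs1 promoter held 2 overlapping response elements, GAAAGAGAAA and GAAACCGAAA, between 83 and 68 bases before the start. The Socs3 promoter held the gamma-activated site TTCTTAGAA from 154 to 146 bases before the start, the only such match in the 10 windows. The element in the Stat4 window, GAAAGTGAAA, lay from 97 to 88 bases before the start. Among all 32841 promoter windows of the table, 2.98% held the response element, 7.02% the gamma-activated site and 5.85% the longer spacing. These matches describe the letters and say nothing on whether a factor was bound in these cells.

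The 24 libraries held between 32223256 and 46927434 counts, and 14188 genes had counts enough to be tested. Levels are given as CPM, counts scaled to library size with adjustment by edgeR's TMM factors (0.880 to 1.19). In every group but WT LPS, replicate 1 was more like replicate 2, and 3 more like 4, than any were across these pairs. Over all groups the chi-square per gene between samples had a median of 4.10 over those 12 pairs and 15.9 over the other 24, and in WT LPS the highest value within a pair, 8.02, exceeded the lowest across pairs, 6.55. All were above 1, the value that sampling noise alone gives on average, but that does not show that the samples of a pair were independent. No samples were merged in the main comparisons, whose p-values and standard errors treat all 4 samples of a group as independent. If the samples of a pair came from the same source, those p-values would be too small. The same comparisons were repeated within replicates 1 and 2, within 3 and 4, and with each pair summed to 1 sample. Ern1 itself was not lower in the samples labelled KO, with mean CPM of 51.4, 37.4 and 39.3 (untreated, zymosan, LPS) against 41.6, 30.2 and 28.5 in WT. Which part of Ern1 was deleted is not given in the sources used here, so the count cannot check the label, and the groups are called by their labels. The summed CPM over 10 dendritic cell markers ran from 4963 to 7637, with higher sums in the samples labelled KO. Cd74, H2-Aa and Itgax held the most counts of that list (2476275, 1350858 and 1167481 over the 24 libraries), while Flt3 and Cd209a were low (1500 and 93). The summed T cell markers did not exceed 0.514 CPM and the NK cell markers 0.522 CPM. The RNA is from whole cultures, where fewer cells of a type and less RNA per cell cannot be told apart.

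All 9 genes were expressed well above the limit of the test in every group. For comparing levels between genes, CPM was divided by the length of the principal transcript (CPM per kb). In untreated WT cells the order was Stat6 (68.2 CPM per kb), Cish (63.3), Socs3 (52.2), Socs2 (52.0), Stat3 (28.5), Stat2 (18.9), Stat5a (12.7), Socs1 (11.8) and Stat4 (7.42). Socs3 and Socs2 overlapped there, as did Stat5a and Socs1, and each other neighbouring pair was separate in all 4 samples. Treatment reordered the set. Socs3 led with 346 CPM per kb under zymosan and 444 CPM per kb under LPS, and Stat2 stood next with 109.6 and 158 CPM per kb. Stat4 stayed lowest, with 13.7 CPM per kb under zymosan and 9.90 under LPS. In the samples labelled KO, Socs3 and then Stat2 again led under both stimuli, with 285 and 97.2 CPM per kb under zymosan and 372 and 129.9 CPM per kb under LPS, and Stat4 was last.

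**Figure D1:**
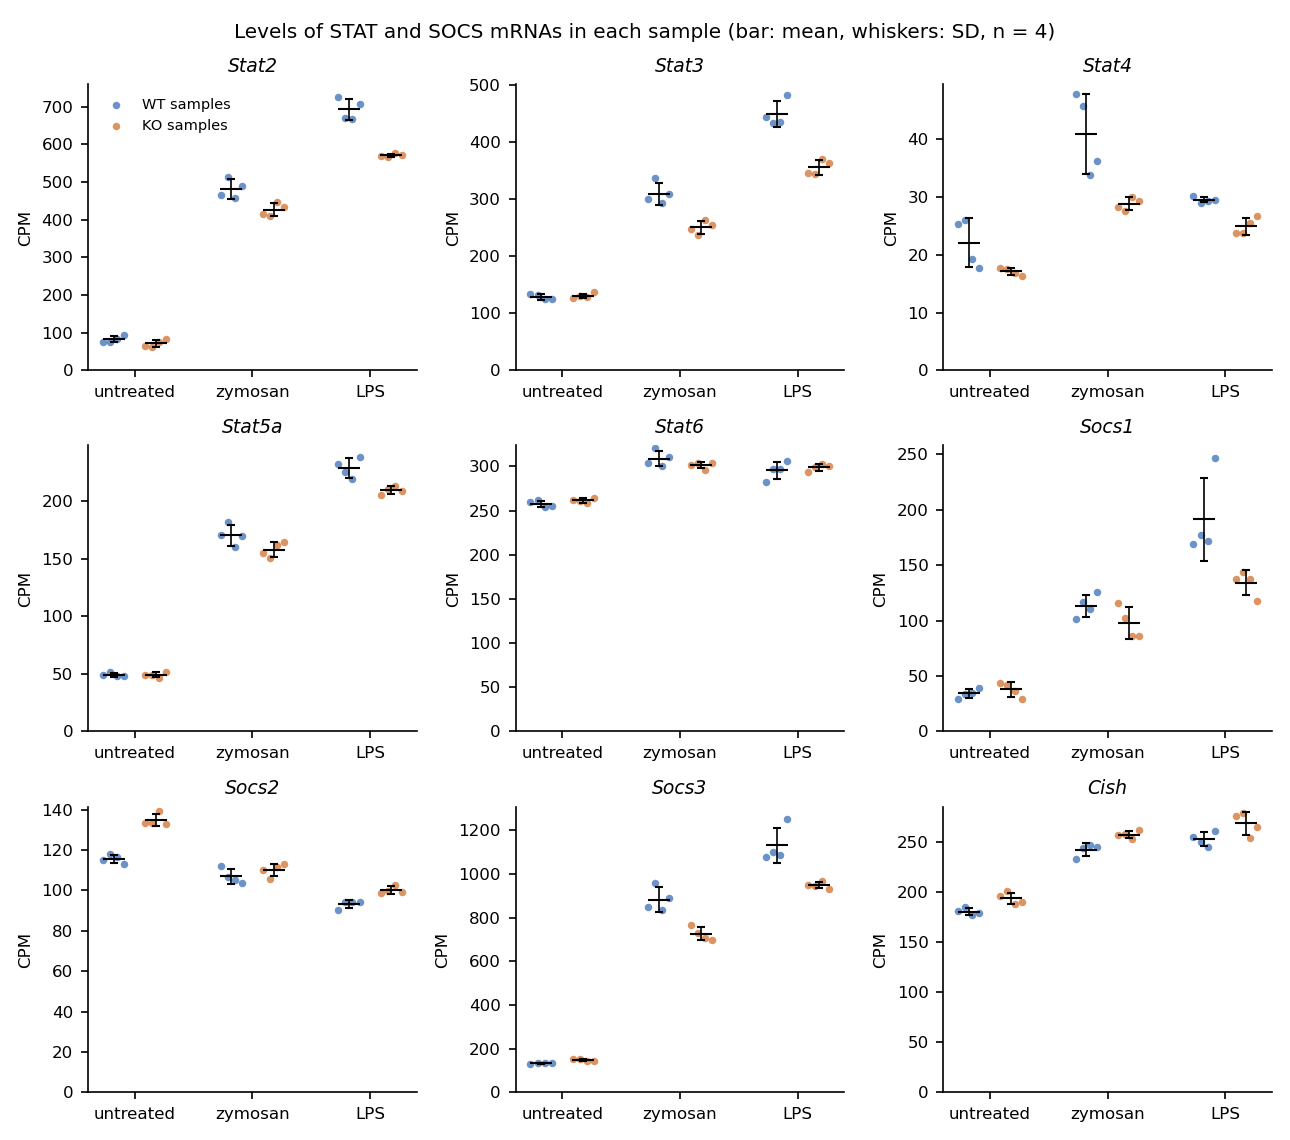
Level of each of the 9 mRNAs in CPM (vertical axes start at 0) for every sample, by treatment, with WT samples in blue and samples labelled KO in orange; bars are means and whiskers SD (n = 4). Stat2, Stat3, Stat5a, Socs1 and Socs3 rise with both stimuli in both genotypes, whereas Stat6, Socs2 and Cish stay within a narrow range.

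In WT cells zymosan changed all 9 genes, 8 upwards and Socs2 downwards, with no overlap between treated and untreated samples for any of them, as for 64% of all genes tested. The background is large: by edgeR's quasi-likelihood test at a Benjamini-Hochberg adjusted p of 0.05, 70.2% of all genes tested were called, 34.3% higher and 35.9% lower. The median log2 fold change of the 9 genes was 1.27, beside -0.01 over all genes tested. LPS also changed all 9, again 8 higher and Socs2 lower, where 75.6% of genes were called, 35.9% higher and 39.7% lower, and a median log2 fold change of 1.80 beside -0.04 over all genes. The zymosan and LPS comparisons use the same 4 untreated samples, so they are not independent of each other.

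Stat2, a factor of type I interferon signalling, had 76.6, 76.7, 84.1 and 94.8 CPM in the untreated WT samples (replicates 1 to 4). It had 465, 514, 458 and 489 CPM with zymosan and 726, 670.1, 668 and 708 CPM with LPS. All zymosan samples were thus above all untreated samples, and all LPS samples above all zymosan samples. The log2 fold change was 2.54 ± 0.07 (SE, 5.80-fold, edgeR adjusted p = 1.05e-19) with zymosan and 3.06 ± 0.08 (8.34-fold, adjusted p = 1.60e-21) with LPS, a size larger than that of 97.0% and 96.7% of the genes tested.

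Stat3, the factor used by interleukin 6 and interleukin 10, had 133, 132, 125 and 125 CPM in untreated WT samples. Zymosan brought it to 300.4, 336, 293 and 308 CPM, and LPS to 444, 434, 435 and 483 CPM. The 3 groups did not overlap. Its log2 fold change was 1.27 ± 0.05 (2.41-fold, edgeR adjusted p = 1.13e-17) with zymosan and 1.80 ± 0.05 (3.49-fold, adjusted p = 6.47e-21) with LPS. Stat5a, a factor used by GM-CSF and other growth-promoting cytokines, lay between 48.4 and 51.9 CPM untreated, between 159.9 and 182 CPM with zymosan and between 219 and 239 CPM with LPS. Those groups were separate too, with log2 fold changes of 1.79 ± 0.04 (3.45-fold) and 2.21 ± 0.04 (4.63-fold). Stat3 and Stat5a lie tail to tail on chromosome 11, from 100885098 to 100939540 (-) and from 100859351 to 100885169 (+). Their annotated exons share 72 bases, and the counting is not stated to use strand, so reads in that stretch could belong to either.

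Stat4, the factor used by interleukin 12, was the only STAT of the 5 called higher with zymosan than with LPS. The untreated WT samples had 25.4, 26.1, 19.3 and 17.7 CPM, the zymosan samples 47.9, 45.8, 33.9 and 36.3 CPM, and the LPS samples 30.1, 29.0, 29.3 and 29.5 CPM. Replicates 1 and 2 were the high pair in the untreated and zymosan groups, and no such split appeared with LPS. Stat4 rose by 0.89 ± 0.10 on the log2 scale with zymosan (1.85-fold, edgeR adjusted p = 2.07e-08) and by 0.42 ± 0.10 with LPS (1.33-fold, adjusted p = 0.000705). Within replicates 1 and 2 alone the LPS change was 0.20, and within 3 and 4 alone it was 0.68. Stat4 shares 1033 of its 3872 exon bases with Gm28177 on the same strand, a gene that the deposited table does not hold. Reads of Gm28177 in that stretch could not be told apart from Stat4. Stat6, which carries interleukin 4 and interleukin 13 signals, moved least of the STATs: it lay between 254 and 262 CPM untreated, 300.3 and 320.4 CPM with zymosan, and 282 and 306 CPM with LPS. These small rises, 0.26 ± 0.03 and 0.20 ± 0.03 on the log2 scale, were larger than the spread between samples (edgeR adjusted p = 5.90e-08 and 3.69e-06), yet 34.6% and 22.5% of the genes tested changed by less. Stat6 exons share 40 bases with Nab2 on the opposite strand, which held 41900 counts over the 24 libraries.

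Socs3, which blocks signalling from the interleukin 6 and G-CSF receptors, showed the largest fold increase of the 9 under both stimuli. It had 129, 133, 135 and 136 CPM in untreated WT samples, 848, 959.8, 834 and 890.0 CPM with zymosan, and 1081, 1103, 1089.7 and 1254 CPM with LPS. The groups were separate, and LPS replicate 4 stood above its group. The log2 fold change was 2.73 ± 0.05 (6.63-fold, edgeR adjusted p = 2.79e-23) with zymosan and 3.09 ± 0.05 (8.49-fold, adjusted p = 1.29e-24) with LPS.

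Socs1, which inhibits JAKs directly and limits interferon responses, had 29.7, 33.8, 35.0 and 39.1 CPM in untreated WT samples. It had 102, 116, 110.2 and 125 CPM with zymosan, and 169, 177, 172 and 247 CPM with LPS. Again LPS replicate 4 was the highest sample, and no group overlapped another. The log2 fold change was 1.72 ± 0.13 (3.30-fold, edgeR adjusted p = 8.43e-12) with zymosan and 2.47 ± 0.13 (5.56-fold, adjusted p = 4.78e-15) with LPS. The standard error of Socs1 was the widest of the 9 genes in both comparisons.

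Cish, a known STAT5 target whose product blocks STAT5 docking, rose modestly. Its WT levels ran from 177 to 185 CPM untreated, from 233 to 247 CPM with zymosan and from 246 to 261 CPM with LPS. The log2 fold changes were 0.43 ± 0.04 and 0.49 ± 0.04 (edgeR adjusted p = 9.65e-11 and 4.74e-12). Cish exons overlap those of the antisense gene Gm17041 by 479 bases and of the pseudogene Gm17040 by 261 bases. Those 2 genes held 4013 and 835 counts over the 24 libraries, and without stated use of strand their reads cannot be told apart from Cish. Socs2, best known as an inhibitor of growth hormone signalling, was the only member to fall: from between 113 and 118 CPM untreated to between 104 and 112 CPM with zymosan and between 90.3 and 94.5 CPM with LPS. The log2 fold change was -0.11 ± 0.03 with zymosan (edgeR adjusted p = 0.00410) and -0.31 ± 0.03 with LPS (adjusted p = 6.06e-09). The zymosan call was lost when replicate pairs were summed (adjusted p = 0.107) or replicates 1 and 2 were used alone (adjusted p = 0.0521).

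Set directly against each other in WT cells, zymosan and LPS differed in 7 of the 9 genes, 2 higher with zymosan and 5 lower, beside 24.5% and 21.9% of all genes tested (46.4% in all). Stat4 (0.47 ± 0.10 log2) and Socs2 (0.20 ± 0.03) were higher with zymosan. Stat2 (-0.52 ± 0.07), Stat3 (-0.54 ± 0.05), Stat5a (-0.43 ± 0.04), Socs1 (-0.75 ± 0.12) and Socs3 (-0.36 ± 0.05) were lower, with zymosan and LPS samples separate for each, as for 42.8% of all genes. Stat6 (0.06, 95% interval 0.00 to 0.13) and Cish (-0.06, interval -0.14 to 0.01) did not pass the test (edgeR adjusted p = 0.106 and 0.173).

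The samples labelled KO responded to both stimuli in the same 9 directions. With zymosan 8 genes were higher and Socs2 lower, where 66.8% of all genes were called, 31.6% higher and 35.2% lower. With LPS the counts were again 8 and 1, beside 34.4% and 37.4%. Stat2 rose by 2.57 ± 0.07 on the log2 scale with zymosan and 2.99 ± 0.08 with LPS, Socs3 by 2.30 ± 0.05 and 2.68 ± 0.05, Stat5a by 1.68 ± 0.04 and 2.09 ± 0.04, and Socs1 by 1.37 ± 0.13 and 1.83 ± 0.13. Stat3 rose by 0.94 ± 0.05 and 1.45 ± 0.05, Stat4 by 0.75 ± 0.10 and 0.54 ± 0.10, Cish by 0.41 ± 0.04 and 0.47 ± 0.04, and Stat6 by 0.21 ± 0.03 and 0.19 ± 0.03. Socs2 fell by 0.29 ± 0.03 and by 0.43 ± 0.03. Zymosan against LPS in the samples labelled KO gave 1 gene higher, Socs2 (0.14 ± 0.03), and 5 lower, beside 22.7% and 20% of all genes: Stat2 (-0.42), Stat3 (-0.51), Stat5a (-0.41), Socs1 (-0.46) and Socs3 (-0.39). The Socs2 call there was lost when pairs were summed (edgeR adjusted p = 0.0899). Stat4 was again above its LPS samples in all 4 zymosan samples, but its difference of 0.21 ± 0.10 did not pass the test (edgeR adjusted p = 0.104).

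**Figure D2:**
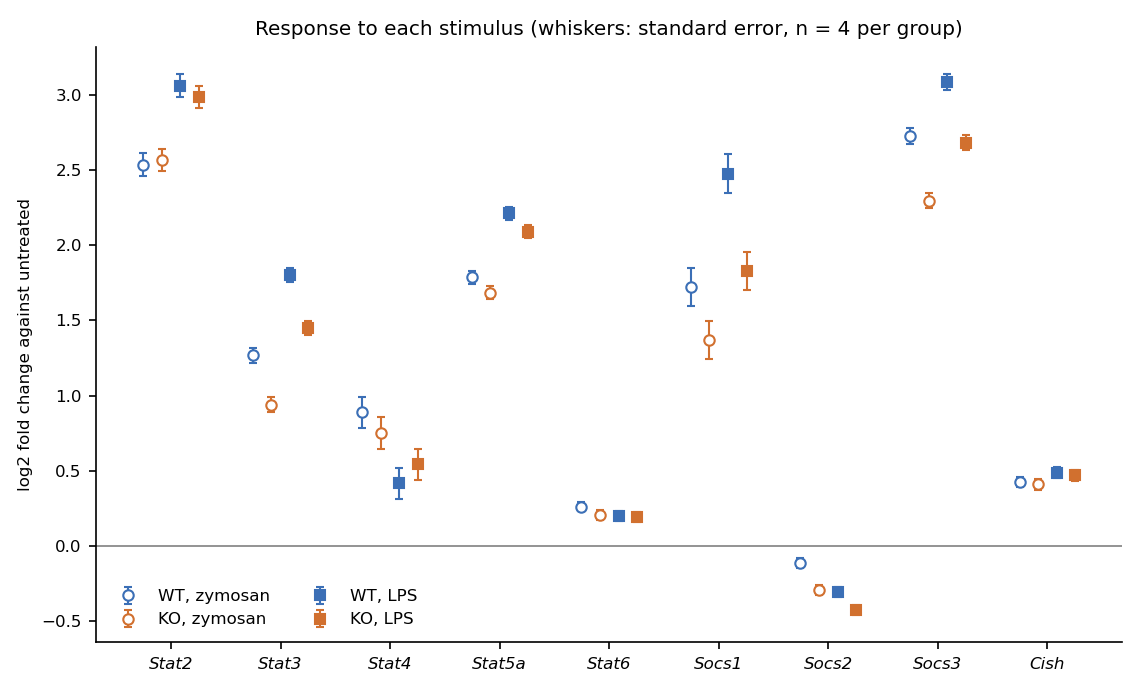
Log2 fold change against untreated samples of the same genotype for each gene (vertical axis), with WT in blue and samples labelled KO in orange, open circles for zymosan and filled squares for LPS; whiskers are standard errors, n = 4 per group. Socs3 falls from 2.73 to 2.30 with zymosan and from 3.09 to 2.68 with LPS between WT and KO, while the Stat2, Stat6 and Cish markers of the 2 genotypes lie close together.

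The next question was whether the genotype label changed the levels. In untreated cells 2 of 9 genes were called, Socs2 higher in the samples labelled KO and Stat4 lower. Of all genes 9.95% were called, 4.31% higher and 5.64% lower. The samples of the 2 genotypes did not overlap for 4 of the 9 genes and for 14.5% of all genes. Socs2 had 115, 118, 116 and 113 CPM in WT and 133, 133, 139 and 133 CPM in the samples labelled KO, with no overlap. Its difference was 0.22 ± 0.03 log2 (edgeR adjusted p = 3.15e-05), and it was 0.20 and 0.25 within replicates 1 and 2 and within 3 and 4, but with pairs summed the adjusted p was 0.0628. Stat4 had 25.4, 26.1, 19.3 and 17.7 CPM in WT against 17.7, 17.6, 16.8 and 16.4 CPM, a difference of -0.37 ± 0.10 (edgeR adjusted p = 0.0209). The lowest WT sample and the highest sample labelled KO nearly met, and the difference was -0.54 within replicates 1 and 2 and -0.15 (edgeR adjusted p = 0.145) within replicates 3 and 4. The Stat4 call was also lost without WT untreated replicate 1 (-0.30, edgeR adjusted p = 0.102) or 2 (-0.28, 0.114), without KO untreated replicate 3 (-0.36, 0.0503) or 4 (-0.35, 0.0552), and when pairs were summed (adjusted p = 0.365) or only these groups were fitted (adjusted p = 0.0740).

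The other 7 genes did not pass the test in untreated cells. Stat3 differed by 0.02 (95% interval -0.08 to 0.12), Stat5a by -0.01 (-0.10 to 0.09) and Stat6 by 0.02 (-0.04 to 0.09). Socs3 (0.15 ± 0.05, edgeR adjusted p = 0.0522) and Cish (0.10 ± 0.04, adjusted p = 0.0700) were higher in all 4 samples labelled KO than in any WT sample without passing the test. Stat2 differed by -0.21 ± 0.07 (edgeR adjusted p = 0.0752). Without KO untreated replicate 4, Stat2 (-0.28, edgeR adjusted p = 0.00694) and Socs3 (0.17, adjusted p = 0.0459) did pass. Socs1 showed opposite signs in the 2 pairs of replicates, 0.43 in replicates 1 and 2 (edgeR adjusted p = 0.000349) and -0.17 in replicates 3 and 4 (adjusted p = 0.554), and 0.14 ± 0.13 over all 4.

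With zymosan, 3 of the 9 genes were lower in the samples labelled KO, beside 11.4% of all genes, while 10.6% of all genes were higher (22.1% called in all). Stat3 had 300.4, 336, 293 and 308 CPM in WT and 247, 237, 263 and 254 CPM in the samples labelled KO, a difference of -0.31 ± 0.05 (0.809 of the WT level, edgeR adjusted p = 2.91e-05). Socs3 had 848, 959.8, 834 and 890.0 CPM against 767, 732, 709 and 698 CPM, a difference of -0.28 ± 0.05 (0.823 of the WT level, edgeR adjusted p = 0.000115). For both genes all samples labelled KO were below all WT samples (5 of the 9 genes and 20.8% of all genes did not overlap), and the difference was called within each pair of replicates and with pairs summed (edgeR adjusted p = 0.0201 for Stat3 and 0.0300 for Socs3). Stat4 had 47.9, 45.8, 33.9 and 36.3 CPM against 28.3, 27.6, 30.1 and 29.3 CPM, a difference of -0.51 ± 0.10 (edgeR adjusted p = 0.000605). For Stat4 the size depended on the pair, -0.74 in replicates 1 and 2 and -0.24 in replicates 3 and 4, and the call was lost with pairs summed (edgeR adjusted p = 0.0728).

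Among the other 6 genes with zymosan, Stat2 was lower in every sample labelled KO (-0.17 ± 0.07, edgeR adjusted p = 0.0795) and Cish higher in every one (0.09 ± 0.04, adjusted p = 0.0828), neither passing the test. Stat5a differed by -0.11 ± 0.04 (edgeR adjusted p = 0.0666), and passed without WT zymosan replicate 3 (-0.14, adjusted p = 0.0262) or KO zymosan replicate 4 (-0.13, adjusted p = 0.0478). Its difference was -0.21 in replicates 1 and 2 and -0.01 in replicates 3 and 4. Socs1 differed by -0.22 ± 0.12 (edgeR adjusted p = 0.224), Socs2 by 0.04 (95% interval -0.03 to 0.11) and Stat6 by -0.03 (-0.10 to 0.03).

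With LPS, 6 of the 9 genes were called between genotypes, beside 33.9% of all genes. Stat2, Stat3, Stat5a, Socs1 and Socs3 were lower in the samples labelled KO, beside 18.2% of all genes, and Socs2 was higher, beside 15.6%. Stat3 had 444, 434, 435 and 483 CPM in WT and 346, 344, 371 and 363 CPM in the samples labelled KO (-0.33 ± 0.05, 0.793 of the WT level, edgeR adjusted p = 5.67e-06). Socs3 had 1081, 1103, 1089.7 and 1254 CPM against 951, 947, 967 and 933 CPM (-0.25 ± 0.05, 0.839 of the WT level, edgeR adjusted p = 0.000238). Socs1 had 169, 177, 172 and 247 CPM against 138, 144, 138 and 118 CPM (-0.51 ± 0.12, 0.702 of the WT level, edgeR adjusted p = 0.00205). In all 3 the groups were separate, as they were for 7 of the 9 genes and 34.4% of all genes. The 3 calls held within each pair of replicates and with pairs summed (edgeR adjusted p = 0.00956, 0.0334 and 0.0416), although the Socs1 difference was -0.30 in replicates 1 and 2 and -0.71 in replicates 3 and 4.

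Stat2 with LPS had 726, 670.1, 668 and 708 CPM in WT and 568, 566, 577 and 572 CPM in the samples labelled KO, which differed from each other by far less than the WT samples did. The difference was -0.28 ± 0.07 (0.824 of the WT level, edgeR adjusted p = 0.00313), alike in both pairs (-0.30 and -0.26), and with pairs summed it did not pass (adjusted p = 0.0987). The 2 remaining calls were small. Stat5a differed by -0.13 ± 0.04 (edgeR adjusted p = 0.0215), a call lost without WT LPS replicate 1 (-0.12, adjusted p = 0.0535) or 4 (-0.11, adjusted p = 0.0806), within replicates 3 and 4 alone (-0.12, adjusted p = 0.109), with pairs summed (adjusted p = 0.191) or with no filter on low counts (adjusted p = 0.0640). Socs2 differed by 0.10 ± 0.03 (edgeR adjusted p = 0.0220), a call lost without WT LPS replicate 1 (0.08, adjusted p = 0.0796) or KO LPS replicate 3 (0.09, adjusted p = 0.0692), within replicates 1 and 2 alone (0.10, adjusted p = 0.0570) or 3 and 4 alone (0.10, adjusted p = 0.111), with pairs summed (adjusted p = 0.276) or with no filter (adjusted p = 0.0975). Stat4 was lower in all 4 samples labelled KO (-0.24 ± 0.10, edgeR adjusted p = 0.0690). Cish differed by 0.09 ± 0.04 (edgeR adjusted p = 0.0606), and passed without WT LPS replicate 4 (0.10, adjusted p = 0.0455) or KO LPS replicate 3 (0.11, adjusted p = 0.0190). Stat6 did not pass in any of the 3 conditions, and with LPS its interval ran from -0.05 to 0.08.

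**Figure D3:**
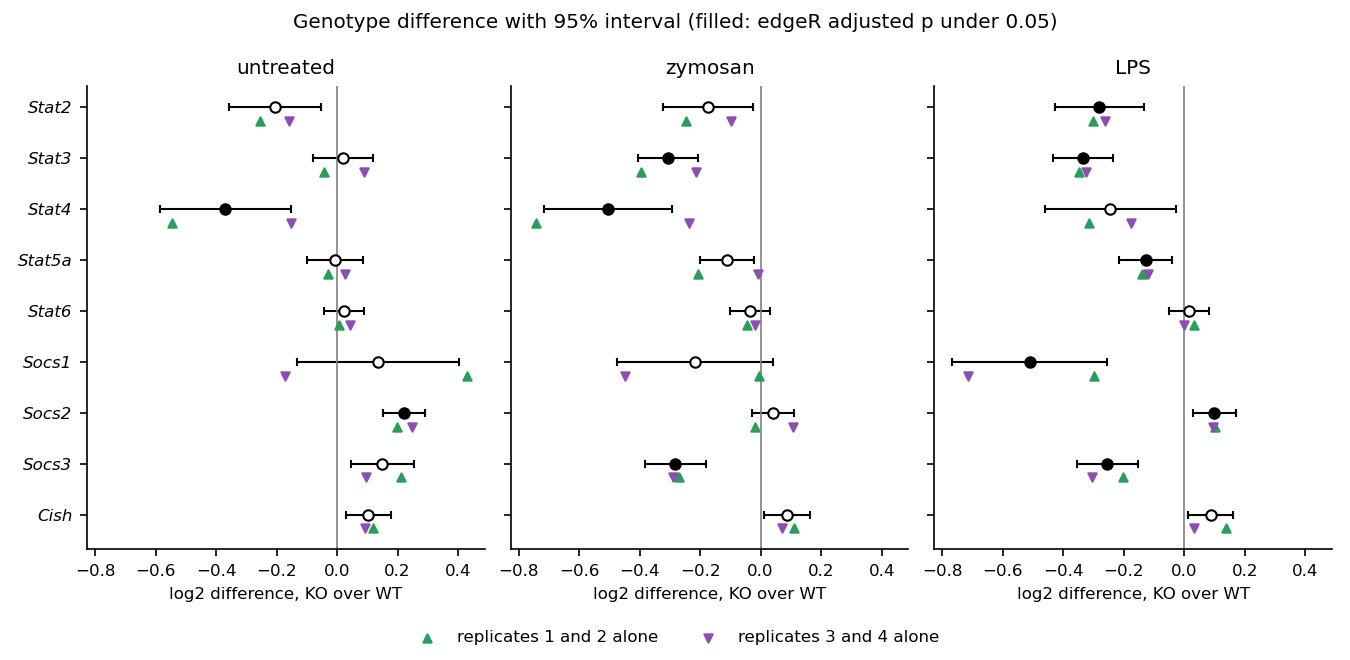
Difference between samples labelled KO and WT in log2 units (horizontal axis) for each gene, untreated, with zymosan and with LPS; circles are estimates from all 4 replicates with 95% intervals, filled where the edgeR adjusted p is under 0.05, and triangles are estimates within replicates 1 and 2 (upward) or 3 and 4 (downward). Stat3 and Socs3 shift to the left of 0 with either stimulus in both pairs, whereas the untreated Socs1 triangles stand at 0.43 and -0.17.

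Whether a stimulus response itself depended on genotype was tested with an interaction term, the log2 response in samples labelled KO minus that in WT. For zymosan 3 genes were called, all with a lower value in the samples labelled KO, beside 0.846% of all genes called lower and 1.82% called in either direction: Socs3 (-0.43 ± 0.07, edgeR adjusted p = 0.00187), Stat3 (-0.33 ± 0.07, adjusted p = 0.00966) and Socs2 (-0.18 ± 0.05, adjusted p = 0.0464). For Socs3 the 6.63-fold WT increase compared with a 4.91-fold increase in the samples labelled KO, and for Stat3 a 2.41-fold with a 1.92-fold increase. The Socs2 response went further down in the samples labelled KO. Its genotype difference was 0.22 untreated and 0.04, not called, with zymosan. For Socs3 the genotype difference was 0.15, not called, untreated and -0.28 with zymosan. That Socs2 call was lost when any 1 of 13 of the 16 libraries was left out, with adjusted p up to 0.128, and held only without WT zymosan replicate 4 or without KO zymosan replicate 3 or 4. It was also lost with DESeq2 size factors (edgeR adjusted p = 0.0583), with no filter (0.186), with only the groups compared (0.133) and within replicates 3 and 4 alone (0.307). No call of this interaction held with pairs summed (edgeR adjusted p = 0.594 for Socs3, 0.656 for Stat3 and 0.915 for Socs2), and the Stat3 value was -0.30 (adjusted p = 0.0534) within replicates 3 and 4 alone.

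For LPS the interaction was called for Socs1 (-0.65 ± 0.18, edgeR adjusted p = 0.0198), Socs3 (-0.40 ± 0.07, adjusted p = 0.000686) and Stat3 (-0.35 ± 0.07, adjusted p = 0.00151), all lower, beside 5.84% of all genes called lower and 10.4% called in either direction. Socs1 rose 5.56-fold in WT and 3.55-fold in the samples labelled KO, Socs3 8.49-fold and 6.42-fold, and Stat3 3.49-fold and 2.73-fold. The Socs1 call was lost without WT untreated replicate 1 (-0.58, edgeR adjusted p = 0.0501), without WT LPS replicate 4 (-0.50, adjusted p = 0.0540), and within replicates 3 and 4 alone (-0.54, adjusted p = 0.0794). With pairs summed, none of the 3 passed (edgeR adjusted p = 0.278 for Socs1, 0.175 for Socs3 and 0.207 for Stat3). For Stat2 and Cish the interaction with LPS was -0.07 (95% interval -0.29 to 0.14) and -0.02 (-0.12 to 0.09). The 2 interaction terms share the untreated samples of both genotypes.

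Marker genes of other cells moved with the genotype label. Their counts stand beside 4.31% of all genes called higher and 5.64% lower between genotypes untreated. With zymosan these shares were 10.6% and 11.4%, and with LPS 15.6% and 18.2%. Summed CPM over 8 eosinophil markers ran from 801 to 1241 across the WT samples and from 42.7 to 54.6 across the samples labelled KO, and no marker was at 0 over a whole group. Of the 7 eosinophil markers tested, 6 were lower in the samples labelled KO when untreated, 6 with zymosan and 7 with LPS; Epx, eosinophil peroxidase, had a mean of 187 CPM in untreated WT samples and 0.755 CPM in those labelled KO. Summed CPM over 7 macrophage markers with LPS ran from 1595 to 1737 in WT and from 1055 to 1143 in the samples labelled KO. Of the 7, 6 were lower and 1 higher. With zymosan that sum ran from 1183 to 1396 in WT and from 1028 to 1215 in the samples labelled KO, with 4 of 7 lower and 1 higher. Untreated it ran from 933 to 1131 and from 971 to 1061, with 1 lower and 1 higher. The sums of the genotypes overlapped in both conditions. The sum of 8 neutrophil markers with LPS ran from 1267 to 1358 in WT and from 1589 to 1779 in the samples labelled KO, with no overlap, and 4 of 8 were higher and 2 lower. Untreated and with zymosan the neutrophil sums overlapped, and 2 and 3 of the 8 were lower. The dendritic cell sum was higher in the samples labelled KO without overlap in every condition: 6033 to 6294 against 4963 to 5165 untreated, 7115 to 7637 against 5969 to 6203 with zymosan, and 6799 to 7210 against 6149 to 6712 with LPS. Of 9 dendritic cell markers tested, 5 were higher in each condition, and 1, 2 and 1 were lower. The sum of 4 plasmacytoid dendritic cell markers was lower in the samples labelled KO with zymosan (558 to 624 against 685 to 739) and with LPS (741 to 766 against 965 to 1087). Untreated the sums overlapped, at 141 to 171 against 146 to 173, so this sum rose with both stimuli in both genotypes. Bst2 held the most counts of that list, 449019 over the 24 libraries, beside 66086 for Tcf4, 634 for Ccr9 and 12 for Siglech. The sum thus follows mostly Bst2 and is not a count of these cells. Of the 3 tested, 1 was higher untreated, 1 was higher and 1 lower with zymosan, and 2 were lower with LPS. Mast cell and basophil markers summed to at most 38.0 CPM and B cell markers to at most 2.88 CPM in any sample. The part of these cells in the differences of STAT and SOCS genes was not tested.

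The other genes of the pathway were taken from lists of known roles. Their counts stand beside the shares of all genes given above: in WT 34.3% higher and 35.9% lower with zymosan, and 35.9% and 39.7% with LPS. Between genotypes the shares were 4.31% higher and 5.64% lower untreated, 10.6% and 11.4% with zymosan, and 15.6% and 18.2% with LPS. Of the remaining STAT and SOCS genes, Stat5b rose by 0.88 ± 0.04 on the log2 scale with zymosan and 1.11 ± 0.04 with LPS in WT cells. Socs6 fell by 0.79 ± 0.07 and by 0.99 ± 0.07, and Socs5 by 0.51 ± 0.09 and by 0.59 ± 0.09. Between genotypes Socs6 was higher in the samples labelled KO in all 3 conditions, untreated, zymosan and LPS (0.30 ± 0.07, 0.37 ± 0.07 and 0.26 ± 0.07, edgeR adjusted p = 0.00349, 0.000382 and 0.00568).

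The 4 JAK kinases all rose with zymosan and with LPS in WT cells, Jak2 most (1.25 ± 0.06 and 1.50 ± 0.06), followed by Tyk2 (0.65 ± 0.04 and 1.08 ± 0.04), Jak3 (0.74 ± 0.07 with each) and Jak1 (0.45 ± 0.04 and 0.57 ± 0.04). Between genotypes Jak3 was lower with zymosan in the samples labelled KO (-0.23 ± 0.07), and Jak2 (-0.16 ± 0.06) and Tyk2 (-0.12 ± 0.04) were lower with LPS. Of 25 receptor genes, 18 were higher and 4 lower with zymosan, and 19 higher and 6 lower with LPS. Il15ra, the receptor chain that presents interleukin 15, led them with log2 fold changes of 2.67 ± 0.06 and 3.75 ± 0.06. Between genotypes with LPS, 14 receptors were lower and 2 higher in the samples labelled KO, beside 18.2% and 15.6% of all genes. Among them were Osmr (-1.68 ± 0.32, at a mean of 0.777 CPM in WT), Il12rb2 (-0.44 ± 0.07) and Il10rb (-0.39 ± 0.06), chains of the oncostatin M, interleukin 12 and interleukin 10 receptors. Untreated, 2 receptors were higher, Il27ra (0.45 ± 0.10) and Lifr (0.35 ± 0.09).

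Of 19 cytokine genes listed, 16 passed the filter on low counts. With zymosan 16 of those were higher in WT, beside 34.3% of all genes, and with LPS 15, beside 35.9%. Genes low in every group, such as Il21 (1 count over the 24 libraries) and Ifng (32), did not pass the filter. A gene near its limit could pass through only the groups where it was high. The counts of cytokines called thus depend in part on that filter. The shares of all genes are printed beside them, but the counts cannot be weighed against those shares. This holds for the comparisons between genotypes too. Il6 went from a mean of 4.61 CPM untreated to 559 CPM with zymosan and 558 CPM with LPS, and Il12b from 2.63 to 708 and 2864 CPM. With LPS 10 of 16 were lower in the samples labelled KO and 1, Lif, was higher, beside 18.2% and 15.6% of all genes. Il10 differed by -1.45 ± 0.10, Csf3 by -0.98 ± 0.13, Il6 by -0.98 ± 0.09 and Il27 by -0.95 ± 0.09. The 2 cytokines that differed most, Il13 (-1.98 ± 0.37) and Il4 (-1.89 ± 0.30), were near the limit of detection, with means of 0.645 and 0.702 CPM in WT. In untreated cells 4 were lower, beside 5.64% of all genes, and with zymosan 8, beside 11.4%.

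**Figure D4:**
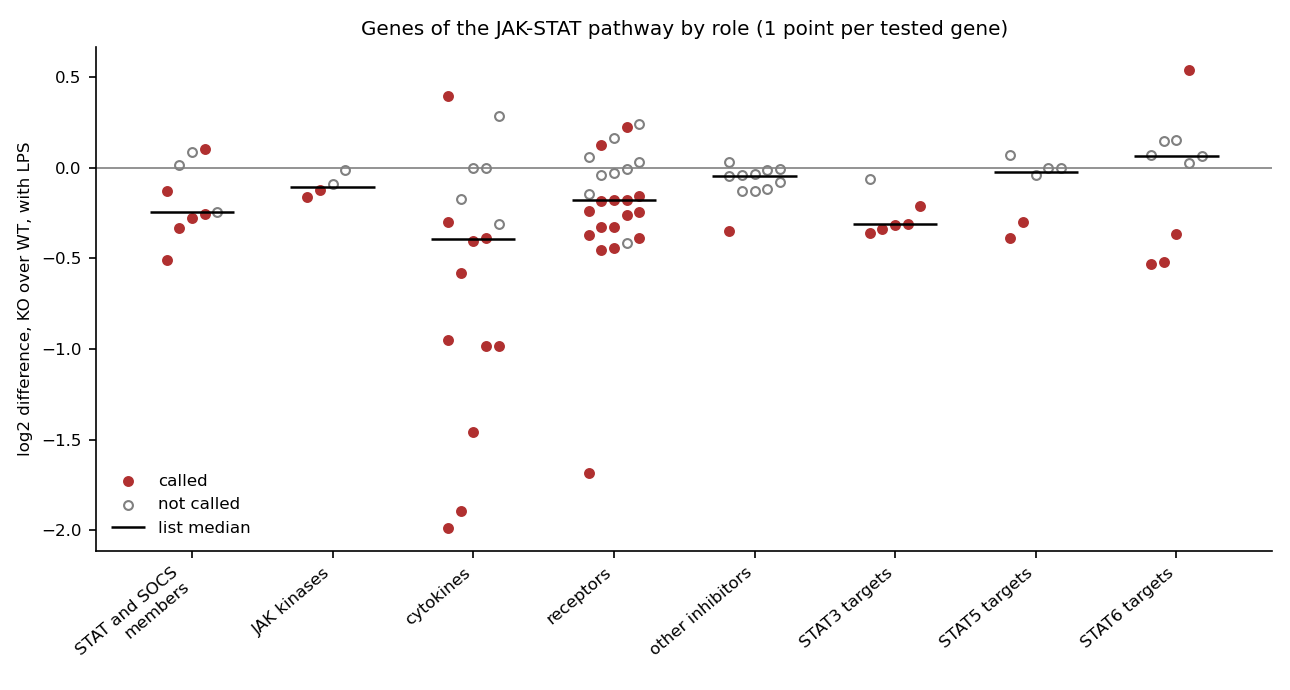
Difference between samples labelled KO and WT with LPS in log2 units (vertical axis) for each tested gene of the 9 members and of 7 lists of pathway roles; filled points passed the edgeR test, open points did not, and bars are list medians. The median stands at -0.24 for the 9 members, and the STAT3 targets lie below 0.

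Known target genes of STAT3, STAT5 and STAT6 were listed beside the factors. All 6 STAT3 targets rose with both stimuli, Bcl3 most (1.53 ± 0.06 and 1.79 ± 0.06). Between genotypes, 3 of the 6 were lower in the samples labelled KO with zymosan, beside 11.4% of all genes, and 5 with LPS, beside 18.2%. With LPS, Sbno2 (-0.36 ± 0.04), Junb (-0.34 ± 0.12) and Bcl3 (-0.32 ± 0.05) led.

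The STAT5 targets, 6 genes of which Osm and Il2ra also stand among the cytokines and receptors, were all higher with zymosan and 5 higher with LPS, and Ccnd2, a D-type cyclin, rose by 1.93 ± 0.07 and 2.63 ± 0.07. Between genotypes with LPS 2 were lower, Bcl6 (-0.39 ± 0.08) and Osm (-0.30 ± 0.05). Of the 9 STAT6 targets, 5 were higher and 2 lower with zymosan, and 4 higher and 3 lower with LPS, a share called near the 70.2% and 75.6% of all genes. The chemokine Ccl22 rose by 1.98 ± 0.06 and 2.34 ± 0.06, and the mannose receptor Mrc1 fell by 0.97 ± 0.10 and by 1.41 ± 0.10. With LPS 3 of the 9 were lower in the samples labelled KO, Retnla (-0.53 ± 0.15), Ccl24 (-0.52 ± 0.08) and Mrc1 (-0.37 ± 0.10), and Ccl17 was higher (0.54 ± 0.08), beside 33.9% of all genes called. Untreated, 3 of the 9 were higher and 3 lower in the samples labelled KO, beside 9.95% of all genes called. With zymosan 2 were higher and 3 lower, beside 22.1%. Of 11 other inhibitors of the pathway, 9 were higher and 2 lower with either stimulus. Usp18, which blocks the type I interferon receptor, rose by 4.39 ± 0.14 and 5.27 ± 0.15. Between genotypes, Ptpn1 was higher in untreated samples labelled KO (0.28 ± 0.04), and Usp18 was lower with LPS (-0.35 ± 0.12).

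The genes whose log2 CPM followed each member most closely over the 24 samples were found by Pearson correlation, as a description only, since the 24 samples share 6 groups and any gene that follows the groups will correlate. Stat2 was followed by Isg15, Xaf1 and Usp18 (r = 0.999 each), which are interferon-induced. Stat3 was followed by Tarm1, Rab5c and Dnajb6 (r = 0.997, 0.997 and 0.996), Stat5a by Psmb9, Il12b and Cd40 (r = 0.999, 0.998 and 0.998), and Socs3 by Nos2, Slc1a2 and Sod2 (r = 0.997 each). Socs1 was followed by Ier5, Med28 and Wnt6 (r = 0.990, 0.990 and 0.988), and Cish by Rhoc, Spg11 and Gbp8 (r = 0.983, 0.982 and 0.980). The closest genes to Stat6 were Zhx2, Efhd2 and Cd82 (r = 0.975, 0.971 and 0.969), to Stat4 Tjp1, Ripor2 and Siglecg (r = 0.960, 0.949 and 0.945), and to Socs2 Itch, Rsu1 and Asgr2 (r = 0.949, 0.948 and 0.941). Within groups the likeness was lower for every one of these genes. Correlations of deviations from the group means ran from -0.365 (Slc1a2 with Socs3) to 0.946 (Xaf1 with Stat2).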

How the data were processed

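RNA from 24 mouse dendritic cell samples was sequenced. Bowtie2, RSEM 1.2.31, DESeq2 and the build mm10 are named in the submitters' processing notes, without their roles. The deposited table holds whole-number counts per Ensembl gene for each sample, with no normalization. Identifiers were matched to symbols with GENCODE M21, which named 37570 of 38887 genes (96.6%), and 14809 genes had no count in any sample. Groups were taken from the labels.

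Counts were analysed with edgeR 4.0.16 in R 4.3.3: filterByExpr kept 14188 genes, TMM scaled the libraries, and a quasi-likelihood fit with 1 mean per group over all 24 samples gave 11 comparisons, each with Benjamini-Hochberg adjustment over all genes and a threshold of 0.05. Standard errors come from the test statistic and 95% intervals from 18 residual degrees of freedom. The common biological coefficient of variation was 0.0686. The script was tested on simulated counts of untreated WT and KO samples, drawn as independent. That simulation held no pairs of alike replicates, no stimulus comparison and no interaction, so it does not bear on those results. Alternatives were DESeq2 1.42.0, its size factors, no filter, only the groups compared, replicate blocks, each library left out, and the pairs of replicates summed or alone. The members, lists and alternatives were chosen with earlier results of these data known. All 9 members are described. From each list, up to 3 called genes with the largest change are named, with JAKs, ligands and receptors by role, and the 3 genes most like each member have a mean of at least 5 CPM. Socs5, and Mrc1 between genotypes, were named after their values were seen. Some listed genes and 1 list of target genes are not reported here.

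The labels number the replicates in every group. Deviations from the group means of same-numbered samples correlated above 0.1 for every number between untreated and zymosan samples of WT (0.151 to 0.247) and of those labelled KO (0.125 to 0.205). By that rule the numbers could be read as pairing those samples. The main comparisons used no pairing, and same-numbered samples were matched only in the replicate blocks. Correlations between different numbers reached 0.175 in WT and 0.296 in those labelled KO, and 6 of 8 and 3 of 8 samples correlated best with their own number, so the pairing is weak, above all in the samples labelled KO. In each of the other 7 pairs of groups compared, at least 1 of the 4 correlations was lower, down to -0.04.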

Additional observations from a re-analysis of the deposited data

Results flagged for a closer look

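In 5 of the 54 sets of 4 replicates (9 genes in 6 groups), 1 sample stood apart from its group, its gap to the nearest sample exceeding the 95% critical value of Dixon's test for 4 samples, where chance gives about 1 in 20. Stat5a in WT untreated replicate 2 was the highest at 51.9 CPM, with the others at most at 48.8. Socs1 and Socs3 were both highest in WT LPS replicate 4, at 247 and 1254 CPM, with the next samples at 177 and 1103 CPM. Socs2 was lowest in WT LPS replicate 1, at 90.3 CPM, and highest in KO untreated replicate 3, at 139 CPM, where the other samples began at 94.2 and ended at 133 CPM.

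The log2 response of 4 genes differed between samples labelled KO and WT in the interaction test. With zymosan the difference was -0.33 for Stat3, -0.18 for Socs2 and -0.43 for Socs3. With LPS it was -0.35 for Stat3, -0.65 for Socs1 and -0.40 for Socs3. None of the 6 calls held when the pairs of replicates were summed. The Socs1 call with LPS was also lost without WT LPS replicate 4, with a value of -0.50 (edgeR adjusted p = 0.0540), the library in which Socs1 and Socs3 stood apart.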

How the results depend on the processing

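Of the 66 member results that passed the edgeR test, 52 kept their call under every alternative and 0 changed sign, among them 35 of 36 stimulus responses but 5 of 17 genotype differences and interactions, these being the KO to WT differences of Stat3 and Socs3 with zymosan and of Stat3, Socs1 and Socs3 with LPS. The number of members called between genotypes in untreated samples, 2 in the report, was 5 with DESeq2, 5 with the replicate block, 6 with replicates 1 and 2 alone, 1 with 3 and 4 alone, 0 with pairs summed, and 1 to 3 with a library left out. With zymosan it was 3 in the report, 6 with the replicate block, 6 with replicates 1 and 2 alone and 2 with pairs summed. With LPS it was 6 in the report and 3 with pairs summed. The interaction with zymosan, 3 in the report, gave 1 with replicates 3 and 4 alone and 0 with pairs summed, and that with LPS, 3 in the report, gave 0 with pairs summed. With pairs summed and unadjusted p under 0.05, the counts of 0 became 2 untreated, 3 for the interaction with zymosan and 3 for that with LPS, and over all 15378 genes then tested 0 passed for the interaction with zymosan, and 2 higher and 3 lower for that with LPS. The cause of these changes was not tested. The replicate block added Stat2, Socs3 and Cish untreated (edgeR adjusted p = 0.0315, 0.0413 and 0.0348), Stat2, Stat5a and Cish with zymosan (0.0373, 0.0464 and 0.0488) and Cish with LPS (0.0362) and, nested in genotype, Stat4 between zymosan and LPS in samples labelled KO (0.0279) and the Socs1 interaction with zymosan (0.0378). It changed no other call, and none of the 7 calls it added between genotypes was made with pairs summed. Of the 33 results not called, 13 changed sign. Between zymosan and LPS, Stat6 was -0.0014 in WT with replicates 3 and 4 alone and, in samples labelled KO, -0.0018 with DESeq2, -0.0020 with its size factors and -0.020 with replicates 3 and 4. Between genotypes untreated, Stat3 was -0.042 with replicates 1 and 2, and with replicates 3 and 4 Stat5a was 0.026 and Socs1 -0.17. Socs2 with zymosan was -0.020 with replicates 1 and 2, and Stat6 with LPS -0.00071 with 3 and 4. In the interaction with LPS, Stat4 was -0.023 with replicates 3 and 4, and Stat6 was 0.026 and Cish 0.019 with 1 and 2. Cish in the interaction with zymosan was 0.00068 with only the groups compared. With 1 library left out, the genotype difference ran from -0.0018 to 0.037 for Stat3 and from -0.032 to 0.021 for Stat5a untreated, and from -0.0049 to 0.034 for Stat6 with LPS. The interaction ran from -0.038 to 0.11 for Stat2 and -0.035 to 0.0021 for Cish with zymosan, and from -0.145 to 0.0048 for Stat2, -0.028 to 0.011 for Stat6 and -0.037 to 0.010 for Cish with LPS.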

Other observations

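The log2 LPS response in samples labelled KO minus that in WT was also tested in the pathway lists. Of the 25 receptors, 6 had a lower value by the interaction test, beside 5.84% of all genes: Il12rb2 (-0.44 ± 0.09 SE, edgeR adjusted p = 0.00446), Il10rb (-0.39 ± 0.08), Il15ra (-0.35 ± 0.09), Il4ra (-0.31 ± 0.07), Ifngr2 (-0.23 ± 0.06) and Ifnar2 (-0.22 ± 0.06). Of the 16 cytokines tested, 3 were lower: Il27 (-0.83 ± 0.23), Il15 (-0.58 ± 0.11) and Il6 (-0.53 ± 0.16). Of the 6 STAT3 targets, 3 were lower: Bcl3 (-0.44 ± 0.08), Zfp36 (-0.36 ± 0.07) and Sbno2 (-0.33 ± 0.06). These values were not recomputed with pairs of replicates summed.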
